A study of Mus musculus with 5 samples.

Results

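The genes of glycosaminoglycan synthesis and sulfation were followed in single cells from the growth plates of 5 mouse pups. The genes were listed by their known function, and the rule uses no measured value, although the set was taken up with earlier results of these data known. It holds the 43 genes, of 29818 in the count matrices, that encode the enzymes of the linker, the chondroitin and heparan chain enzymes, the enzymes that modify those chains, the supply of sulfate and of nucleotide sugars, the heparan sulfatases and the hyaluronan synthase Has2. All 43 had at least 1 unique molecular identifier (UMI, the tag that lets copies of 1 RNA molecule be counted once) in every pup.

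The pups were littermates with the strain labelled C57BL/6J, and each was captured as its own library. By the study's methods the knock-in was made on C57BL/6J, while the Cre line came from a B6SJLF1 background with only 2 crosses to C57BL/6J. The 2 pups labelled WT are described as wild type, and whether they carried a Cre transgene is not given in the sources used here. The 3 pups labelled Mutant carried the Col2a1-Cre transgene, which is active in chondrocytes. They also carried 1 conditional knock-in allele of Trpv4 that expresses p.R594H after recombination, while the other allele stayed wild type. In which of the cell classes the allele was recombined was not measured here. No group was treated. The age is postnatal day 5 in the sample labels and postnatal day 3 in the series text. Cartilage of the distal femur and proximal tibia was digested with collagenase. The label names chondrocytes as the cell type, and of 82516 cells kept, 39557 (47.9%) fell in clusters named as resting, proliferating, hypertrophic, articular or Tgfbi-expressing chondrocytes by their markers. Cycling cells (5425) and unnamed cells (10567) are outside this count, and their Col2a1 levels of 55870 and 56350 counts per 1e6 UMIs stood beside 61230 in articular chondrocytes. Perichondrial, tendon or ligament, synovial, endothelial, blood, muscle and nerve sheath cells were also present.

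Glycosaminoglycans are long sugar chains that are built in the Golgi on the core proteins of proteoglycans such as aggrecan. A short linker that begins with xylose is extended either by alternating glucuronic acid and N-acetylgalactosamine, which gives chondroitin sulfate, or by alternating glucuronic acid and N-acetylglucosamine, which gives heparan sulfate. Sulfotransferases then place sulfate groups on the chain from the donor PAPS, and in cartilage the dense sulfate of chondroitin holds the water that lets the tissue resist compression. Inherited loss of several of these genes, among them SLC26A2, PAPSS2, CHST3, CHST11 and XYLT1, causes skeletal disease in humans.

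The promoters of Chst3, Chst11 and Papss2 are shown because the levels of Chst3 ran against those of the other 2 across articular, resting and proliferating chondrocytes. In Tgfbi-expressing chondrocytes the mean level of all 3 genes was below that of resting cells. The promoter of Xylt2 is shown because Xylt1 and Xylt2 were the paralog pair with the least similar class patterns, with a Pearson correlation of log2(CPM + 1) of -0.52 over 18 classes. The 18 include rare classes with few Xylt2 UMIs (2 in Schwann cells), and over the 6 tested classes the correlation was 0.34, while that of Ext1 and Ext2 was lowest at -0.71. The sequences are 300 bases of RefSeq on build GRCm38.p6, from 250 bases before to 50 bases after the annotated start, 5′ to 3′ on the strand of the gene. Capitals mark the GC box (GGGCGG or CCGCCC) and the SOX-type motifs (ACAAAG or CTTTGT, and ACAATG or CATTGT) on either strand.

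Chst3 (chr10:60219211-60219510, minus strand): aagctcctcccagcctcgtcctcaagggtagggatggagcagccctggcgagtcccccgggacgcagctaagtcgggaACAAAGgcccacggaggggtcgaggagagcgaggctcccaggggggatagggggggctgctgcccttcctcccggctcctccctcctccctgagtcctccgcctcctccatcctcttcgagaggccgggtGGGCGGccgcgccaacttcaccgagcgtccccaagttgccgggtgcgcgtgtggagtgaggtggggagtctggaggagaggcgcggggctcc
Chst11 (chr10:82985247-82985546, plus strand): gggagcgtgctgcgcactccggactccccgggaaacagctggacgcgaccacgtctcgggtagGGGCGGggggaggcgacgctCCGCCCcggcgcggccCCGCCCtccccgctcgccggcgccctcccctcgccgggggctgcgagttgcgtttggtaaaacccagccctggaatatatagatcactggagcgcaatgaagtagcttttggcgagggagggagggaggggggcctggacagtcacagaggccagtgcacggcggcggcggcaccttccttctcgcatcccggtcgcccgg
Papss2 (chr19:32595465-32595764, plus strand, the first of 2 annotated starts): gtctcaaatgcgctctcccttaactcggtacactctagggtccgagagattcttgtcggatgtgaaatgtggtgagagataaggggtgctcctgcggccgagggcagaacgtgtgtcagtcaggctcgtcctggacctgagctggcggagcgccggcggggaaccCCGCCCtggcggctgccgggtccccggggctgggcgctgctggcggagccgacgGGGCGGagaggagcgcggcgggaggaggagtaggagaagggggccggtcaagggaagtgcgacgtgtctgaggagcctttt
Xylt2 (chr11:94677444-94677743, minus strand): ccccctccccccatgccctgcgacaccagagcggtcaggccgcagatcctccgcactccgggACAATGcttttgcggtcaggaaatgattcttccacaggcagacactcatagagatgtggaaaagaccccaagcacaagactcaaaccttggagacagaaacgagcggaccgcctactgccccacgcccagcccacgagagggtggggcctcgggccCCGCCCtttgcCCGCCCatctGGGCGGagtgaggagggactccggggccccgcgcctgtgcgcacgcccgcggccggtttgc

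The windows of Chst3, Chst11, Papss2 and Xylt2 held 1, 3, 2 and 3 GC boxes. ACAAAG was present once, in Chst3, and ACAATG once, in Xylt2. Of the 43 members, 34 had an entry in the RefSeq promoter table, with 43 windows. The GC box was found in 31 of these windows (72.1%) and in 35.7% of 32851 promoters of that length, counted with chromosome 18 left out. The ACAAAG motif was found in 1 member window (2.33%) and in 18.7% of those promoters, and the ACAATG motif in 1 member window (2.33%) and in 12.6% of those promoters. These matches are descriptions of the letters in the windows.

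The 5 libraries held between 117746735 and 183322632 UMIs before filtering. Median depth per cell was 9261 and 8521 UMIs for the WT libraries against 6657, 6000 and 7016 UMIs for the Mutant libraries, so that depth moved with the label. Between 3 and 7 cell barcodes were shared by each pair of libraries. Xist was at 647 and 632 CPM (UMIs of a gene per 1e6 UMIs of the sum) in 2 Mutant pups and under 0.3 CPM in the other 3 pups, so that sex and label overlapped in part. Of 41 clusters 37 were named into 19 classes, and 4 clusters with 12.8% of the cells stayed unnamed. The resting class joined 6 clusters (19513 cells), the articular class 4 (11070 cells), the perichondrial class 2 (8530 cells) and the tendon or ligament class 5 (8082 cells). The proliferating class was 1 cluster of 5475 cells. Its leading genes were Panx3, Smpd3 and Ppa1, its marker list included Ihh, Pth1r and Panx3, which also mark prehypertrophic cells, and cells with cell cycle genes were kept apart in the cycling class, so that the name does not mean that its cells were dividing. The hypertrophic class was 1 cluster of 539 cells with 54 to 211 in a pup. Its leading genes were Col10a1 and Ihh, with Pth1r also among the first 10, so that its name too may cover prehypertrophic cells, while Mmp13 and Spp1 of its marker list were among the leading genes of the Tgfbi-expressing class.

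Levels below are CPM, from the UMIs of all cells of a class in a pup added together, and are given as the mean ± SD of 5 pups. Values in single pups are listed in the order WT 1, WT 2, Mutant 1, Mutant 2, Mutant 3. Since UMIs are not scaled to transcript length, levels are compared within a gene and not between genes. Fold changes are log2 values on TMM-normalized sums, with their standard errors (SE) and edgeR quasi-likelihood p-values adjusted over all genes tested. Each SE was derived from the test, as the absolute log2 fold change divided by the square root of its quasi-likelihood F statistic. Each class was set against resting chondrocytes with the pup as a block. The classes were formed from other genes of the same cells. The p-values of class contrasts therefore describe how steadily a difference between such groups of cells recurred in 5 pups.

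**Figure D1:**
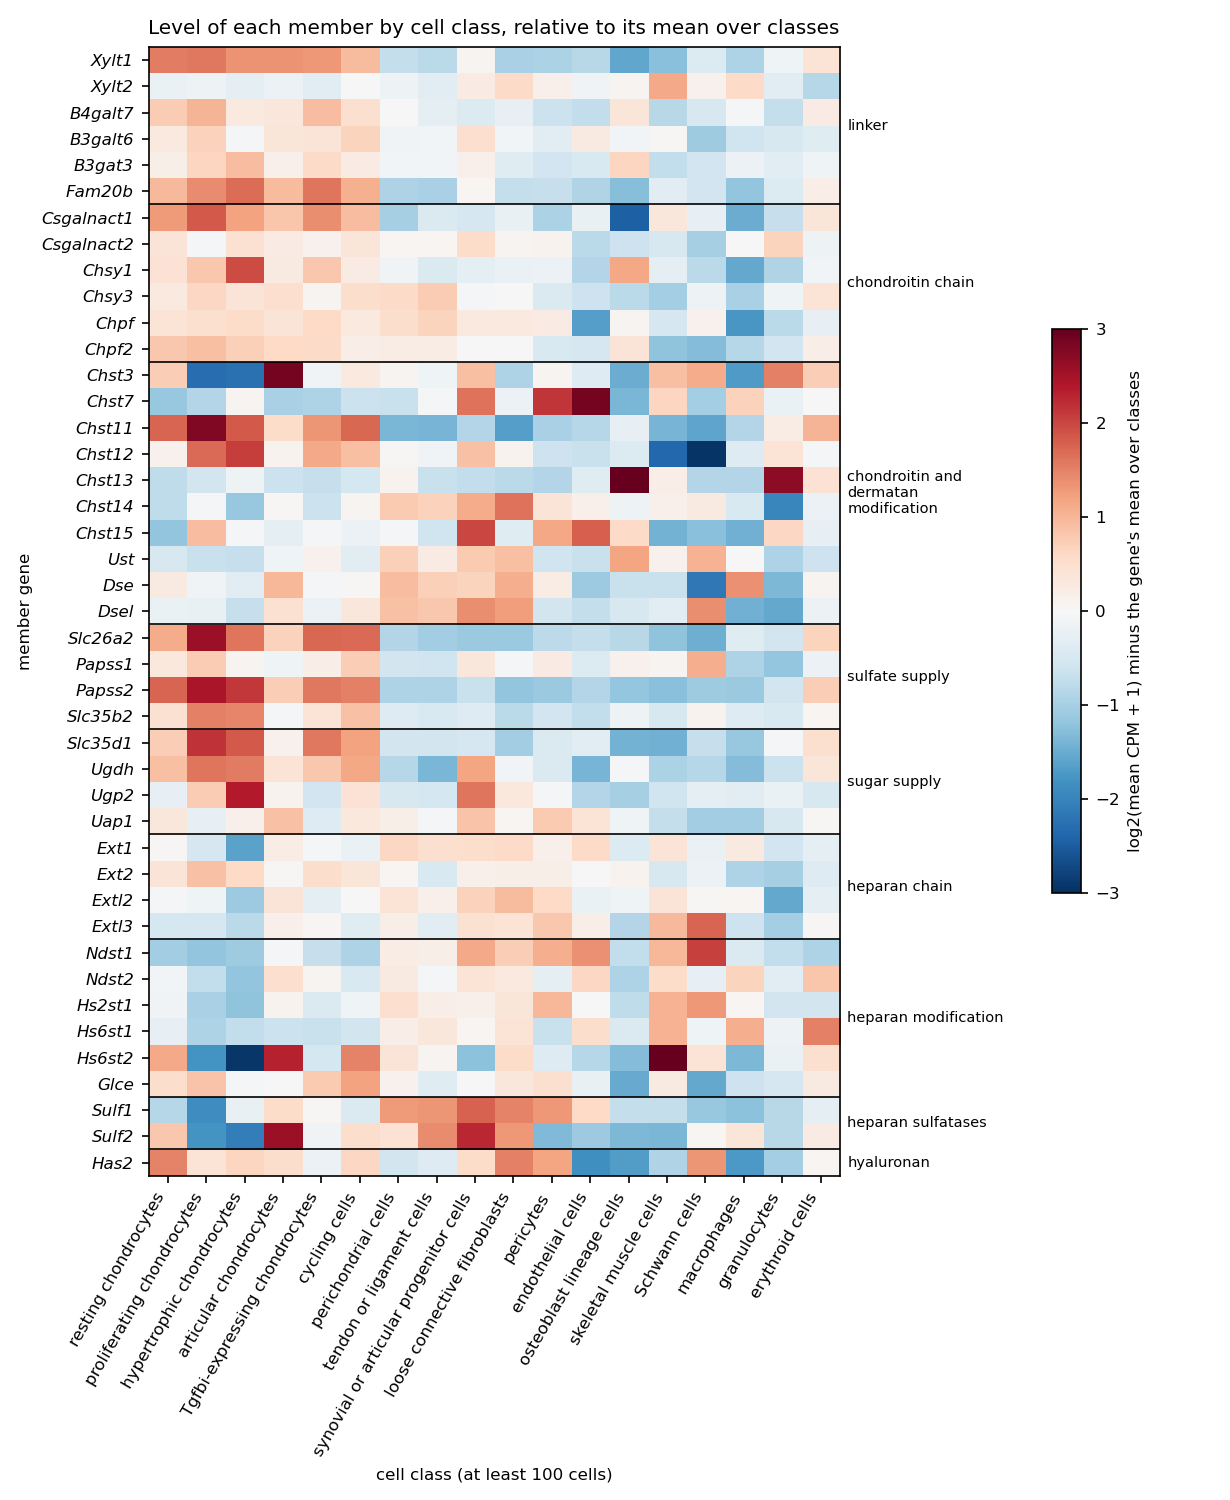
Level of the 43 members (rows, grouped by role) in the named classes with at least 100 cells (columns), as log2(mean CPM + 1) minus the mean of that gene over the classes shown. Chst11, Papss2 and Slc26a2 are high in proliferating, resting, hypertrophic and Tgfbi-expressing chondrocytes and in cycling cells. Chst3 is highest in articular chondrocytes, where Sulf2 and Hs6st2 are also high. Sulf2 is also high in synovial or articular progenitor cells, Hs6st2 is highest in skeletal muscle cells and Chst13 in osteoblast lineage cells.

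Proliferating chondrocytes held the highest level of most members of sulfate and sugar supply among the 6 tested classes. Among the 6 classes tested, the highest mean CPM was in proliferating chondrocytes for 16 members, in perichondrial cells for 9, in hypertrophic chondrocytes for 7, in articular chondrocytes for 6, in tendon or ligament cells for 4 and in resting chondrocytes for 1, Has2. With CPM divided by the TMM factors these counts were 14, 7, 6, 5, 9 and 2, the last being Has2 and Xylt1. Against resting chondrocytes, 21 of 43 members were higher in proliferating chondrocytes, 14 were lower and 8 did not pass the adjusted threshold of 0.05. Of all 15259 genes tested, 32.7% were higher and 35.6% lower. The median log2 fold change was 0.20 over the members and -0.03 over all genes. In hypertrophic chondrocytes 15 members were higher and 21 lower, where 29.4% and 37.5% of all genes were, with a median of -0.20 for the members and -0.13 for all genes. With 1 pup left out that member median lay between -0.171 and -0.0679, the latter without the second WT pup, and it was -0.0109 at a clustering resolution of 0.8, while the median of all genes was 0.505 with DESeq2. In articular chondrocytes 15 were higher and 20 lower, beside 28.3% and 31.2% of all genes, with medians of -0.07 and -0.03. In perichondrial cells 16 were higher and 24 lower, beside 34.5% and 34.4%, with medians of -0.27 and -0.01. In tendon or ligament cells 16 were higher and 22 lower, beside 33.9% and 35.5%, with medians of -0.14 and -0.02. By role, the direction was shared in some groups of members and mixed in others. In proliferating chondrocytes, 5 of the 10 chondroitin and dermatan modification genes were higher and 3 lower.

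**Figure D2:**
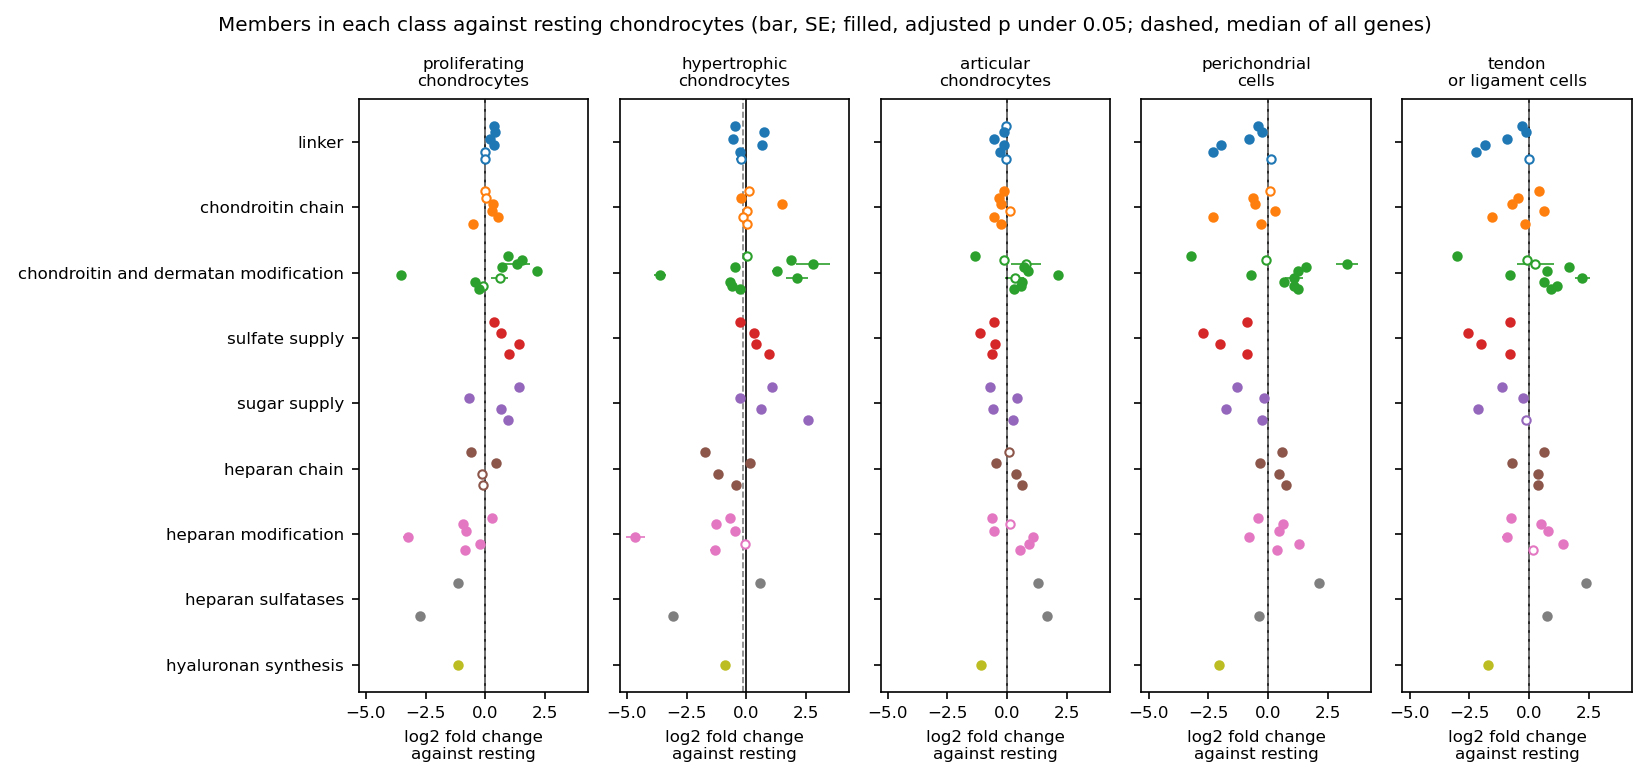
Log2 fold change of each member in 5 classes against resting chondrocytes (x axis), by role (y axis). Bars are SE, filled points passed an adjusted p of 0.05 and dashed lines are the median of all genes. All 4 sulfate supply genes lie to the right of 0 in proliferating chondrocytes and to the left in articular, perichondrial and tendon or ligament cells.

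Of the 4 sulfate supply genes, 4 passed as higher in proliferating chondrocytes, where 32.7% of all genes did. In hypertrophic chondrocytes 3 were higher and 1, Papss1, lower, beside 29.4% and 37.5% of all genes. In articular, perichondrial and tendon or ligament cells 4 of 4 passed as lower in each, beside 31.2%, 34.4% and 35.5%. Slc26a2 carries sulfate into the cell. It was at 845, 700.1, 622, 849.6 and 846 CPM in the proliferating cells of the 5 pups and at 297, 277, 216.5, 287 and 320.5 CPM in resting cells, so that the classes did not overlap (log2 fold change 1.39, SE 0.0904, edgeR adjusted p = 1.12e-12). In hypertrophic cells it was at 397 ± 113 CPM, with 2 pups at 277 and 271 CPM inside the range of resting cells (log2 fold change 0.41, SE 0.0919, edgeR adjusted p = 0.000335).

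Papss2 and Papss1 encode the synthases that turn sulfate into PAPS. Papss2 was at 900.4 ± 71.6 CPM in proliferating, 717 ± 128 in hypertrophic, 552 ± 72.5 in resting and 274 ± 20.8 in articular chondrocytes. The lowest proliferating pup was at 794 CPM and the highest resting pup at 647 CPM, while the hypertrophic range of 562 to 887 CPM overlapped both neighbours. Against resting cells the change was 0.64 in proliferating (SE 0.0838, edgeR adjusted p = 2.49e-07) and -1.12 in articular chondrocytes (SE 0.0850, edgeR adjusted p = 4.14e-11). Papss1 moved less, from 89.4 ± 3.50 CPM in resting to 122 ± 3.00 in proliferating, 76.6 ± 6.82 in hypertrophic and 66.2 ± 5.50 in articular chondrocytes. Slc35b2, which brings PAPS into the Golgi, was at 105 ± 7.16 CPM in proliferating and 100.5 ± 5.79 in hypertrophic against 50.2 ± 2.98 in resting chondrocytes.

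Of the 4 sugar supply genes, 3 were higher and 1, Uap1, lower in both proliferating and hypertrophic chondrocytes, beside 32.7% of all genes higher and 35.6% lower in the former and 29.4% and 37.5% in the latter. Ugp2 makes UDP-glucose, Ugdh oxidizes it to UDP-glucuronic acid, and Slc35d1 carries UDP-sugars into the lumen of the secretory pathway for chondroitin chains. Ugp2 was at 506, 629, 521, 594 and 504 CPM in the hypertrophic cells of the 5 pups and between 80.1 and 96.0 CPM in resting cells (log2 fold change 2.57, SE 0.0726, edgeR adjusted p = 3.56e-22). Its proliferating level lay between these, at 181 ± 26.2 CPM. Slc35d1 was at 230.1 ± 14.2 CPM in proliferating and 183 ± 22.0 in hypertrophic against 83.8 ± 11.1 CPM in resting cells (log2 fold changes 1.39 and 1.07). Uap1, which makes UDP-N-acetylglucosamine, ran the other way, with 277 ± 28.7 CPM in articular, 192 ± 18.1 in resting and 126 ± 5.82 in proliferating chondrocytes.

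Chst11 and Chst3 are chondroitin sulfotransferases of different positions, and their levels ran in opposite order across articular, resting and proliferating chondrocytes. Chst11, which places sulfate at carbon 4 of N-acetylgalactosamine, was at 1100.0, 1139, 985, 1162 and 1195 CPM in proliferating, at 531, 629, 439, 505 and 632 CPM in resting and at 242, 199.7, 203, 262 and 270.4 CPM in articular chondrocytes. No pup of one of these classes overlapped with another class. Chst3, which places sulfate at carbon 6, had the opposite order, with 116, 119, 125, 113 and 109 CPM in articular, 33.2, 17.1, 23.0, 28.3 and 26.5 in resting and 3.05, 2.33, 1.30, 1.94 and 2.76 CPM in proliferating cells. In hypertrophic cells Chst3 was as low, at 2.38 ± 1.13 CPM. In perichondrial and tendon or ligament cells both genes were below their resting levels, with Chst11 at 61.51 and 61.25 CPM and Chst3 at 15.79 and 13.49 CPM. The Pearson correlation of log2(CPM + 1) of the 2 genes was -0.40 over the 6 tested classes and -0.19 over 18 classes.

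Against resting cells Chst3 was 2.10 higher in articular chondrocytes on the log2 scale (SE 0.107, edgeR adjusted p = 1.24e-14). In proliferating and hypertrophic chondrocytes its log2 fold changes were -3.53 (SE 0.144) and -3.60 (SE 0.255). Chst11 was 1.33 lower on that scale in articular cells (log2 fold change -1.33, SE 0.0999, edgeR adjusted p = 8.69e-11). In proliferating cells it was higher (0.97, SE 0.0982), and in hypertrophic cells the difference from resting cells was 0.03 (SE 0.0995) and did not pass. Another 4-position enzyme, Chst12, was at 102 ± 12.8 CPM in proliferating and 131 ± 28.5 in hypertrophic cells against 33.5 ± 5.76 in resting cells (log2 fold changes 1.53 and 1.88). Chst15 adds a further sulfate to a 4-sulfated residue. It was at 44.5 ± 4.14 CPM in proliferating cells against 9.51 ± 1.31 CPM in resting cells, with 39.2 CPM in the lowest proliferating pup and 11 CPM in the highest resting pup (log2 fold change 2.16, SE 0.157, edgeR adjusted p = 2.31e-11).

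**Figure D3:**
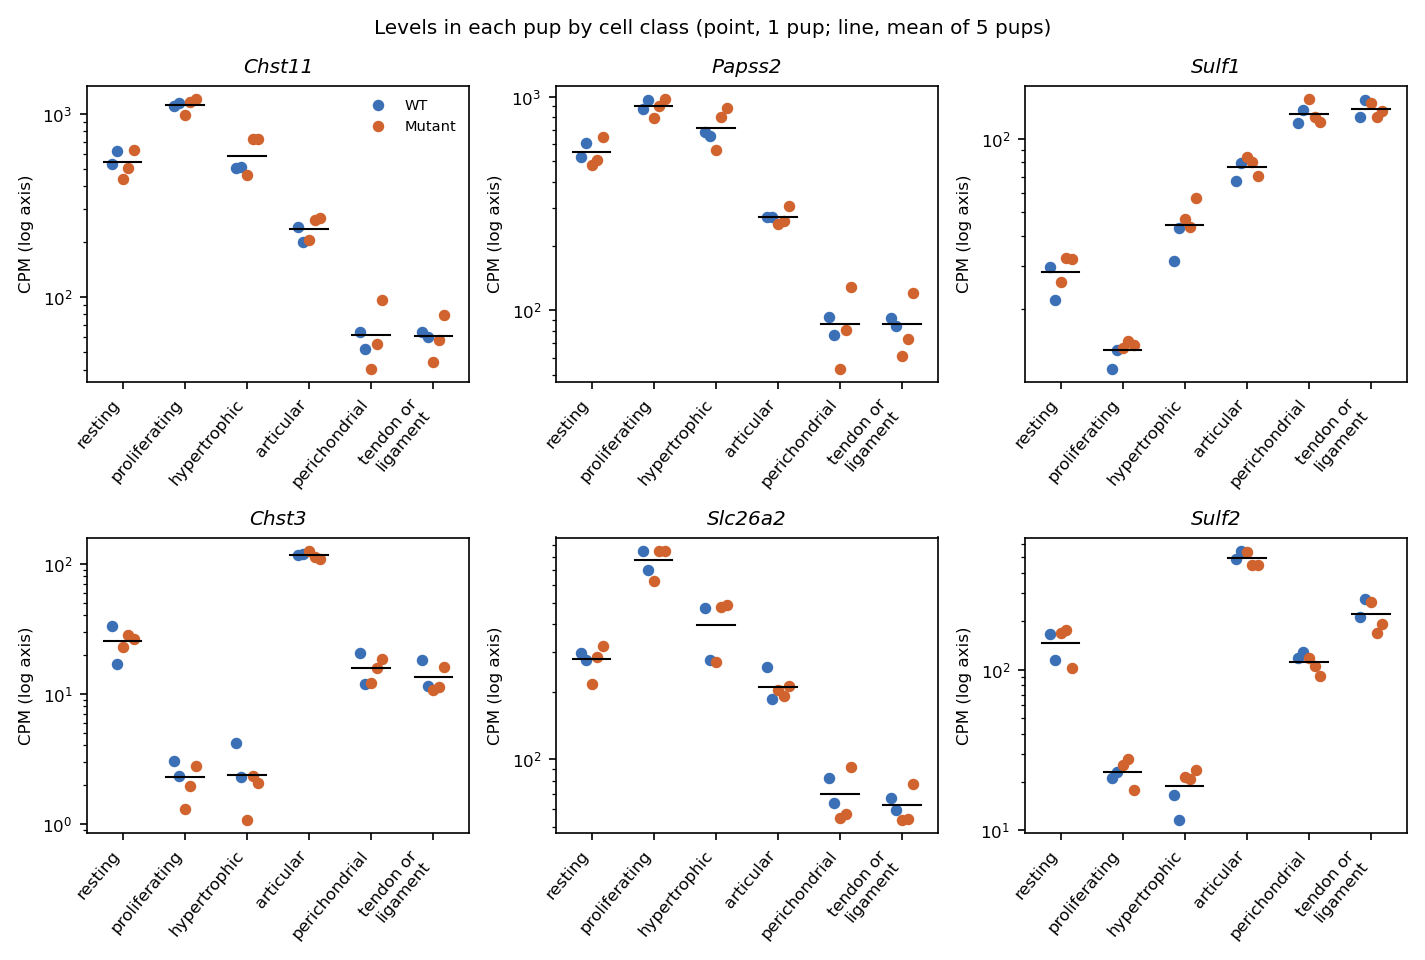
CPM of Chst11, Chst3, Papss2, Slc26a2, Sulf1 and Sulf2 in each pup (points, WT and Mutant in separate colours) by class, on a log axis, with the mean of 5 pups as a line. Chst3 runs from 116 CPM in articular to 2.28 CPM in proliferating chondrocytes, and Chst11 from 1116 CPM in proliferating to 235 CPM in articular chondrocytes.

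The share of cells with a UMI followed the same order at equal depth. After every cell was thinned to 3000 UMIs, 27.4% ± 1.94 of articular, 7.20% ± 1.48 of resting and 0.616% ± 0.128 of proliferating chondrocytes held a Chst3 UMI (SD, n = 5). Before thinning the shares were 41.5%, 16.8% and 3.68%, at median depths of 5267, 7998 and 19116 UMIs. Macrophages held Chst3 in 1.17% ± 0.442 of thinned cells, at a median depth of 7588 before thinning. The mean proliferating share and the mean hypertrophic share of 0.777% ± 0.871 were no higher than that of macrophages. The part of free RNA from other cells in these shares was not tested. Chst11 was found in 94.6% ± 1.24 of thinned proliferating, 67.0% ± 4.73 of resting, 45.3% ± 3.67 of articular and 13.6% ± 6.00 of macrophage cells. The shares with both a Chst3 and a Chst11 UMI were 13.6% of articular, 4.54% of resting and 0.582% of proliferating cells. Thinning left out 1688 of 37517 Mutant cells and 10 of 22293 WT cells, which were shallower than 3000 UMIs.

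Inside the resting class the opposed order was present at the extremes. Among its 6 clusters, that led by Sfrp5 (2334 cells) held 1110 CPM of Chst11, 1010 CPM of Papss2 and 524 CPM of Slc26a2, the highest of the 6 for each, and 7.99 CPM of Chst3, 22.4 CPM of Sulf2 and 7.22 CPM of Hs6st2, the lowest for each. The cluster led by Spink5 and Ucma (4239 cells) held the least Chst11, 374 CPM, and the most Chst3 and Sulf2, 60 and 357 CPM. The median of the 6 clusters was 424 CPM of Chst11 and 18.3 CPM of Chst3. The genes Chst3, Chst11, Papss2, Sulf2 and Hs6st2 were not among the features that formed the clusters. The Sfrp5-led cluster scored highest for the proliferating markers (1.16 on the marker score) but did not meet the conditions for that name, and it was named resting as the next class within 0.5 that did. The Sfrp5-led cluster made up 13.8% and 21.8% of the resting cells of the WT pups and 9.21%, 3.98% and 13.1% of those of the Mutant pups.

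Among the 6 tested classes Ust was highest in perichondrial cells. By CPM so were Chst14 and Dsel, and Dse was highest in articular chondrocytes, but with CPM divided by the TMM factors Chst14 and Dsel were highest in tendon or ligament cells and Dse in perichondrial cells. Dermatan sulfate forms where an epimerase, Dse or Dsel, converts glucuronic to iduronic acid in the chain, and Chst14 then sulfates it at the 4 position. Chst14 was at 46.0 ± 2.18 CPM in perichondrial and 43.1 ± 6.29 in tendon or ligament cells against 15.1 ± 1.23 in resting chondrocytes (log2 fold changes 1.60 and 1.66). Dsel was at 62.1 ± 5.05 and 59.0 ± 5.98 CPM in these classes against 29.1 ± 1.68 (1.08 and 1.18). In articular chondrocytes, Dse was at 144 ± 8.43 CPM against 86.0 ± 8.62 CPM (0.63, SE 0.0605). Ust, which sulfates the uronic acid at the 2 position, was at 30.7 ± 4.78 CPM in perichondrial cells against 12.7 ± 1.74 CPM (1.25, SE 0.0698, edgeR adjusted p = 1.07e-15). Outside the tested classes, loose connective fibroblasts held Chst14, Dsel, Dse and Ust at 82.9 ± 15.3, 81.2 ± 19.0, 153 ± 14.6 and 34.8 ± 6.18 CPM. Synovial or articular progenitor cells held them at 58.4 ± 8.74, 89.4 ± 7.60, 113 ± 10.8 and 32.0 ± 3.94 CPM. Osteoblast lineage cells held Ust at 42.2 ± 11.5 CPM.

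Chst13 and Chst7 rested on few UMIs. The count filter of the joint fit asks for enough counts in only as many sums as a single class holds. A rare member can therefore pass it through the class where it is high. The calls of these genes are among the members counted as higher above, and they are given as descriptions. Chst13, also a 4-position enzyme, had 16 UMIs in all resting cells, 28 in proliferating, 12 in hypertrophic and 60 in perichondrial cells, and its log2 fold changes of 1.33, 2.79 and 3.28 against resting cells rest on those counts. In proliferating cells the change without the first Mutant pup was 0.94 (edgeR adjusted p = 0.172) and without the third 1.09 (edgeR adjusted p = 0.0696). In hypertrophic cells it was 2.24 without the first Mutant pup (edgeR adjusted p = 0.0552), and in perichondrial cells it was 0.54 at a clustering resolution of 2.5 (edgeR adjusted p = 0.539). Chst7, like Chst3 a 6-position enzyme, had 34 to 118 UMIs in the hypertrophic, perichondrial and tendon or ligament classes and 84 in the resting class. Its log2 fold changes were 2.13, 1.08 and 2.23, and the perichondrial value without the second WT pup was 0.89 (edgeR adjusted p = 0.0783). That value was 0.77 at a resolution of 0.8 (edgeR adjusted p = 0.147) and 0.31 with the members kept among the clustering features (edgeR adjusted p = 0.627).

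The linker and chain enzymes differed widely in how far their levels ranged over the 6 tested classes, from a highest mean 7.28 times the lowest for Csgalnact1 to 1.17 times for Xylt2. Xylt1, which starts the linker, was at 584 ± 68.8 CPM in resting, 606 ± 60.8 in proliferating, 508 ± 65.4 in hypertrophic and 508 ± 57.7 in articular chondrocytes, and these ranges overlapped. In perichondrial and tendon or ligament cells it was at 122 ± 27.5 and 114 ± 23.3 CPM (log2 fold changes -2.29, SE 0.0594, and -2.22, SE 0.0594). Its paralog Xylt2 stayed between 3.46 and 4.05 CPM on average in all 6 classes, and none of its 5 contrasts passed. Fam20b, the kinase that phosphorylates the xylose, was at 194 ± 5.16 CPM in resting, 264 ± 5.64 in proliferating and 315 ± 14.0 in hypertrophic cells, with no overlap between pups, and at 50.8 ± 6.34 CPM in perichondrial cells.

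Csgalnact1 adds the first N-acetylgalactosamine of a chondroitin chain, and Chsy1 is a synthase that extends it. Csgalnact1 was at 357 ± 33.3 CPM in proliferating and 241 ± 48.4 in resting cells, and the resting pup at 309 CPM was above none of the proliferating pups, of which the lowest was at 319 CPM (log2 fold change 0.51, SE 0.107, edgeR adjusted p = 0.000227). Chsy1 was highest in hypertrophic cells, with 631, 667, 706, 674 and 709.9 CPM in the 5 pups against 209.5, 203, 216, 250.1 and 294 CPM in resting cells (log2 fold change 1.48, SE 0.0951, edgeR adjusted p = 8.58e-13). Chpf, a partner of the synthases, stayed between 45.2 and 54.8 CPM on average in the 6 classes.

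Of the 6 heparan modification genes, 5 were lower and 1, Glce, higher in proliferating cells, where 35.6% of all genes were lower, and 5 were lower and none higher in hypertrophic cells, where 37.5% were. Of the 4 heparan chain genes 1 was lower and 1 higher in proliferating cells, and 3 were lower and 1 higher in hypertrophic cells. Of all genes, 32.7% were higher in proliferating and 29.4% in hypertrophic cells. Hs6st2, which sulfates glucosamine at the 6 position, was at 46.2, 33.6, 50.8, 50 and 42.6 CPM in resting, at 4.62, 3.74, 4.27, 6.57 and 5.99 CPM in proliferating and between 0.930 and 2.73 CPM in hypertrophic cells. The log2 fold changes were -3.24 (SE 0.215, edgeR adjusted p = 1.22e-11) and -4.64 (SE 0.414, edgeR adjusted p = 1.57e-09). Articular chondrocytes held more, 102 ± 16.1 CPM (1.09, SE 0.175, edgeR adjusted p = 1.53e-05), but at a clustering resolution of 0.8 this difference was 0.29 (edgeR adjusted p = 0.219). In tendon or ligament cells 1 Mutant pup was at 43.8 CPM and the other 4 pups were between 12.6 and 20.3 CPM.

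Ext1 and Ext2 form the polymerase of heparan sulfate, and their levels moved apart. Ext1 fell from 91.7 ± 9.34 CPM in resting to 63.1 ± 8.07 in proliferating and 28.6 ± 2.85 in hypertrophic cells (log2 fold change -1.72 in hypertrophic cells, SE 0.0813, edgeR adjusted p = 2.01e-17). Ext2 was at 95.9 ± 6.78, 136 ± 9.65 and 112 ± 10.3 CPM in the same classes (0.43, SE 0.0417, and 0.16, SE 0.0465). The hypertrophic level of Extl2, another enzyme of the family, was 1.18 lower on the log2 scale than the resting level (-1.18, SE 0.140), but -0.03 at a resolution of 2.5 (edgeR adjusted p = 0.804). Of the N-sulfating enzymes, Ndst2 was lower in hypertrophic cells (-1.32) and Ndst1 was higher in perichondrial and tendon or ligament cells, at 72.1 ± 6.83 and 69.8 ± 7.49 CPM against 29.4 ± 2.41 CPM (1.28 and 1.41). Hs2st1, which sulfates the uronic acid at the 2 position, was lower in hypertrophic cells, at 19.7 ± 6.82 against 43.1 ± 6.85 CPM (-1.28).

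Sulf1 and Sulf2 are secreted sulfatases that remove sulfate at the 6 position from finished heparan chains. Sulf2 was at 487, 547, 538, 450.2 and 449 CPM in articular chondrocytes, at 166, 115, 168, 177 and 103 CPM in resting cells and between 17.7 and 27.8 CPM in proliferating cells, with no overlap. Its log2 fold change against resting cells was 1.66 in articular (SE 0.132), -2.73 in proliferating (SE 0.143) and -3.06 in hypertrophic cells (SE 0.185, edgeR adjusted p = 1.59e-12). Among the 6 tested classes Sulf1 was highest in tendon or ligament and perichondrial cells, at 133 ± 10.1 and 127 ± 12 CPM, whose pups overlapped, while synovial or articular progenitor cells were at 179.8 ± 16.7 CPM. It was lower in articular, hypertrophic and resting cells, at 76.3 ± 7.07, 44.5 ± 9.21 and 28.4 ± 4.51 CPM, and lowest in proliferating cells at 13.6 ± 1.30 CPM. The log2 fold change of Sulf1 was 2.37 in tendon or ligament cells (SE 0.0966), 2.14 in perichondrial (SE 0.0961), 1.30 in articular (SE 0.0951) and -1.15 in proliferating cells (SE 0.102).

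Has2, which spins hyaluronan at the cell surface without a core protein or sulfate, was the member with its highest level in resting chondrocytes among the 6 tested classes. Loose connective fibroblasts, outside these, were at 126 ± 31.7 CPM. It was at 121, 125, 116, 114 and 142 CPM in resting chondrocytes and at 60.1, 54.6, 53.6, 59.4 and 63.4 CPM in proliferating cells (log2 fold change -1.16, SE 0.0627, edgeR adjusted p = 6.86e-16). Articular cells were at 63.0 ± 8.97 CPM (-1.10), perichondrial cells at 29.4 ± 1.51 (-2.08) and tendon or ligament cells at 33.1 ± 3.52 CPM (-1.74).

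Some members were lower by at least 1 on the log2 scale, against resting chondrocytes, in both perichondrial and tendon or ligament cells. They were Has2 and Xylt1, given above, Chst11 (-3.21 and -3.03), Papss2 (-2.73 and -2.56), Csgalnact1 (-2.33 and -1.54), Slc26a2 (-2.03 and -2.02), Fam20b (-1.95 and -1.84), Ugdh (-1.78 and -2.12) and Slc35d1 (-1.32 and -1.14). The share of all genes past this cut in both classes is not given here, so the list is a description. Col2a1, the collagen gene of chondrocytes, stood at 5.40% of its resting level in perichondrial cells, 7.36% in tendon or ligament cells and 9.14% in macrophages. Chst11 stood at 11.2% of its resting level in both perichondrial and tendon or ligament cells, Papss2 at 15.6% in both and Slc26a2 at 25% and 22.3%. In macrophages the same genes stood at 16.1%, 13.5% and 35.7%. Other blood cells held more Col2a1. In erythroid cells Col2a1, Chst11, Papss2 and Slc26a2 stood at 37.2%, 59.9%, 49.7% and 73.4% of their resting levels. In granulocytes they stood at 16.7%, 34.6%, 20.1% and 31.5%. The erythroid means of Chst11 and Papss2 were 328 and 274.2 CPM, beside 235.4 and 273.8 CPM in articular chondrocytes. Papss2 in perichondrial cells was at 92.5, 76.7, 53.3, 80.85 and 128.5 CPM, and Col2a1 there was at 6688, 3689, 2612, 4758 and 12120 CPM, so that both were lowest in the first and highest in the third Mutant pup. The part of free RNA in these levels was not tested.

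Some rarer classes held mean levels above those of the 6 tested classes. Osteoblast lineage cells (293 cells) held Chst13 at 64.3 ± 9.64 CPM, from 320 UMIs, while macrophages (1176 cells) held 0 UMIs of it, for which the upper limit of the 95% Poisson interval was 0.362 CPM and the level of 3 UMIs was 0.294 CPM. Chst15 was at 94.5 ± 30.8 CPM in synovial or articular progenitor cells (2491 cells) and at 82.2 ± 3.19 CPM in endothelial cells (569 cells), which also held Chst7 at 22.9 ± 6.55 CPM. Hs6st2 was at 272 ± 47.5 CPM in skeletal muscle cells (416 cells, 11 to 174 in a pup). Ndst1 was at 255 ± 47.3 CPM in Schwann cells (106 cells, 5 to 55 in a pup). Dse was at 186 ± 45.8 CPM in macrophages, beside 144 ± 8.43 CPM in articular chondrocytes, whose highest cluster was at 173 CPM.

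Mast cells, whose granules store heparin on the core protein serglycin, were 55 cells with 3 to 28 in a pup, so their UMIs were pooled and the 95% Poisson intervals cover counting error only. Ndst2, the N-sulfating enzyme of heparin, was at 281 CPM (236 to 332, from 136 UMIs), where no tested class was above 10.3 CPM on average. Hs6st2 was at 469 CPM (410 to 534), Ext1 at 417 (362 to 479), Slc35d1 at 492 (431 to 558) and Papss2 at 438 CPM (381 to 501). Xylt2, Chst13 and Ust had 0 UMIs in these cells, for which the upper limit of the 95% Poisson interval was 7.62 CPM and the level of 3 UMIs was 6.20 CPM.

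Other genes of the pathway were read from 6 fixed lists. Golgi and precursor supply held 18 genes, lysosomal breakdown 14 and hyaluronan turnover 8, of which 17, 13 and 6 were tested. Keratan sulfate synthesis held 10, core proteins 25 and other heparan sulfate enzymes 11, of which 9, 24 and 7 were tested. The counts below are of the tested genes. Of 17 tested genes of Golgi and precursor supply, 13 were higher and none lower in proliferating chondrocytes, beside 32.7% and 35.6% of all genes, and 1 was higher and 14 lower in perichondrial cells, as in tendon or ligament cells, beside 34.5% and 34.4% in the former and 33.9% and 35.5% in the latter. The shares of all genes given at the start for each class hold beside the counts that follow, which are of few genes. Of 13 lysosomal breakdown genes 1 was higher and 9 were lower in proliferating cells and 1 and 10 in hypertrophic cells, against 6 and 1 in articular and 8 and 1 in tendon or ligament cells. Galns, the lysosomal sulfatase for the 6 position of chondroitin and keratan sulfate, was at -1.64 in proliferating cells (SE 0.113). The 6 hyaluronan turnover genes that were tested, of 8 listed, were all higher in perichondrial and in tendon or ligament cells. The receptor Cd44 was at 2.59 and 2.73.

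Of 9 keratan sulfate genes 6 were higher and 2 lower in perichondrial cells, and in tendon or ligament cells the sulfotransferase Chst5 was at 4.21 (SE 0.144, edgeR adjusted p = 9.61e-19). Of 24 core proteins 5 were higher and 14 lower in proliferating cells. Acan, the aggrecan core of cartilage, was higher in proliferating and hypertrophic cells (0.62 and 0.63) and lower in articular cells (-1.31), while Vcan, the versican core, was at -2.54, -3.58 and 1.25 in these classes. Of 7 other heparan sulfate enzymes 2 were higher and 2 lower in proliferating cells, and Extl1 was at -2.67 in articular and -3.72 in perichondrial cells. Core proteins could be among the genes that formed the clusters, and Acan is also a marker of the proliferating class, so that their contrasts are descriptions.

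The genotype comparison asked whether any member differed between the pups labelled WT and Mutant within a class. No member passed in edgeR in any of the 6 classes, and no other gene did either: 0.0% of 16537 genes in resting, of 14975 in proliferating, of 9707 in hypertrophic, of 13664 in articular, of 13251 in perichondrial and of 13172 in tendon or ligament cells. At an unadjusted p under 0.05 there were 7 of 42, 1 of 42, 1 of 38, 6 of 41, 7 of 43 and 1 of 42 members in these classes, and 1130, 567, 345, 1101, 1023 and 448 genes. DESeq2 called 34, 0, 0, 7, 7 and 0 genes, of which 1 was a member, Ugdh in perichondrial cells. The median SE of a member was 0.134 in resting, 0.134 in proliferating, 0.205 in hypertrophic, 0.120 in articular, 0.124 in perichondrial and 0.145 in tendon or ligament cells, on the log2 scale.

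The median log2 fold change of the members, Mutant against WT, was 0.09 in resting, 0.09 in proliferating, 0.11 in hypertrophic, 0.03 in articular, 0.04 in perichondrial and 0.09 in tendon or ligament cells, where the medians of all genes lay between -0.01 and 0.01. Without the second WT pup the medians were 0.000867 in resting, 0.0245 in proliferating, 0.0232 in hypertrophic and -0.00837 in articular cells, and without the third Mutant pup 0.000342 in perichondrial cells. Of 38 members tested in all 6 classes 10 (26.3%) had a TMM-scaled fold change above 0 in each, beside 1468 of 9447 genes (15.5%), and 2 had one below 0 in each, beside 1165 genes. The 6 classes share their pups and are not independent of each other. The 10 were Chsy1, Csgalnact2, Dse, Ext2, Hs2st1, Papss2, Sulf1, Ugdh, Ust and Xylt1. The direction can turn with the scaling: the mean CPM of Csgalnact2 in perichondrial cells was 104 in WT and 103 in Mutant pups.

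Ugdh was the member nearest to a call. Its levels in perichondrial cells were 113 and 117 CPM in the WT pups and 152, 151 and 181 CPM in the Mutant pups (log2 fold change 0.54, SE 0.108, edgeR adjusted p = 0.638, DESeq2 adjusted p = 0.00696). In articular chondrocytes they were 271.5 and 316 against 352, 376 and 421 CPM (0.44, SE 0.120, edgeR adjusted p = 0.585). In proliferating cells they were 724.5 and 708 against 840.0, 831 and 878 CPM (0.31, SE 0.0906, edgeR adjusted p = 0.992), and in hypertrophic cells 722 and 716 against 773, 756 and 870.3 CPM. In these 4 classes every Mutant pup was above both WT pups by CPM, and in all 6 classes with CPM divided by the TMM factors. In resting cells 401 and 478 CPM overlapped with 463, 499 and 580.2 CPM, and in tendon or ligament cells 84.8 and 101 CPM overlapped with 104, 94.8 and 114 CPM (0.27, SE 0.120, edgeR adjusted p = 0.990). Without the filter on low counts, edgeR called Ugdh in articular (adjusted p = 0.0316) and in perichondrial cells (adjusted p = 0.00649). Of the articular clusters, the one with the most Ugdh (437 CPM) made up 35.9% of WT and 43.8% of Mutant articular cells. The one with the least (210 CPM) made up 11.4% and 8.61%. In 3 other classes the cluster with the most Ugdh was a smaller share of the Mutant cells. In perichondrial cells it (161 CPM) made up 48.1% of WT and 45.4% of Mutant cells. In resting cells it (796 CPM) made up 17.6% and 8.69%, and in tendon or ligament cells (159 CPM) 6.17% and 4.03%. Depth was lower in every Mutant pup, and the parts of depth and of this make-up in the Ugdh values were not tested. An exon of a predicted gene, Gm43552, overlaps Ugdh on the same strand.

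**Figure D4:**
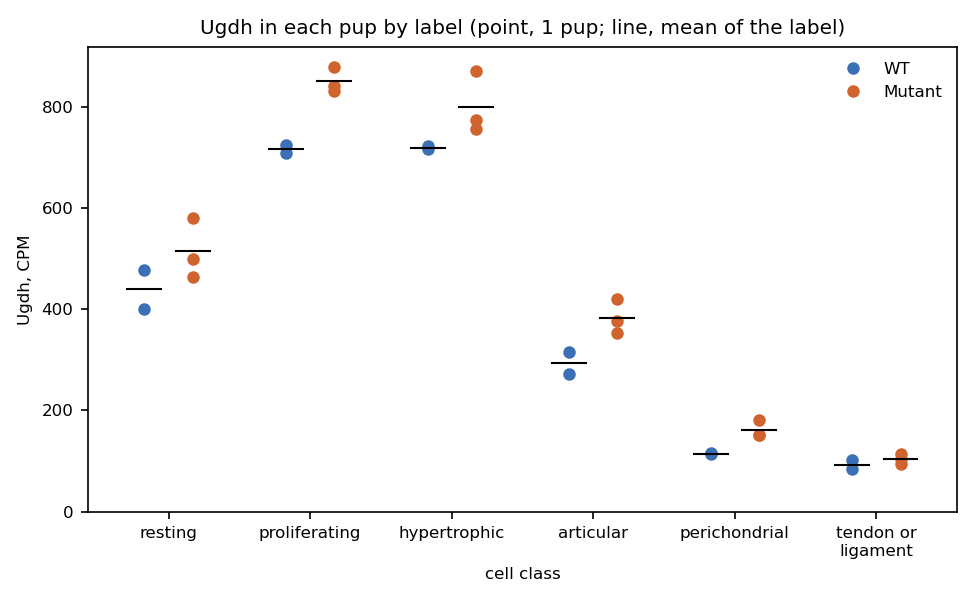
CPM of Ugdh in each pup (points) by class and label, with the mean of each label as a line. The Mutant pups lie above both WT pups in proliferating, hypertrophic, articular and perichondrial cells and overlap with them in resting and tendon or ligament cells on this scale, which has no TMM factors.

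The other members with the smallest unadjusted p in a class did not pass. In resting chondrocytes these were Hs2st1 with 33.4 and 40.4 CPM against 46.9, 43.1 and 51.6 CPM (0.42, SE 0.0997, edgeR adjusted p = 0.617), Dse (0.32) and Uap1 (0.31). Of the 6 resting clusters, the Sfrp5-led cluster held the least of each of these 3 genes, at 26.6 CPM of Hs2st1, 55.9 of Dse and 123 of Uap1, and it made up 17.6% of WT and 8.69% of Mutant resting cells. The cluster led by Chil1 and Sfrp1 made up 16.5% and 20% of the resting cells of the WT pups and 27.0%, 28.2% and 31.3% of those of the Mutant pups. The part of this difference in the make-up of the resting class in its genotype values was not tested. In articular chondrocytes they were Ndst1 with 49.5 and 53.9 against 67.7, 66.1 and 62.2 CPM (0.39, SE 0.0943, edgeR adjusted p = 0.585) and Hs6st2 with 87.4 and 88.7 against 127, 102 and 106 CPM (0.39, SE 0.0994). In perichondrial cells Chst12 was at -0.41 (SE 0.127, edgeR adjusted p = 0.638) and Chsy1 at 0.26. In proliferating cells Chsy1 was at 0.36 and Csgalnact2 at 0.24. In hypertrophic cells Sulf2 (0.70, SE 0.256), Extl2 (0.68) and Sulf1 (0.36) had the smallest p. In tendon or ligament cells Chpf was at -0.26 and Chsy1 at 0.25. With high Xist as a covariate (647 and 632 CPM in the first 2 Mutant pups), Chsy1 in proliferating cells was at -0.00176 in place of 0.36. No WT pup had high Xist, so the genotype value of that fit sets the third Mutant pup against the 2 WT pups.

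**Figure D5:**
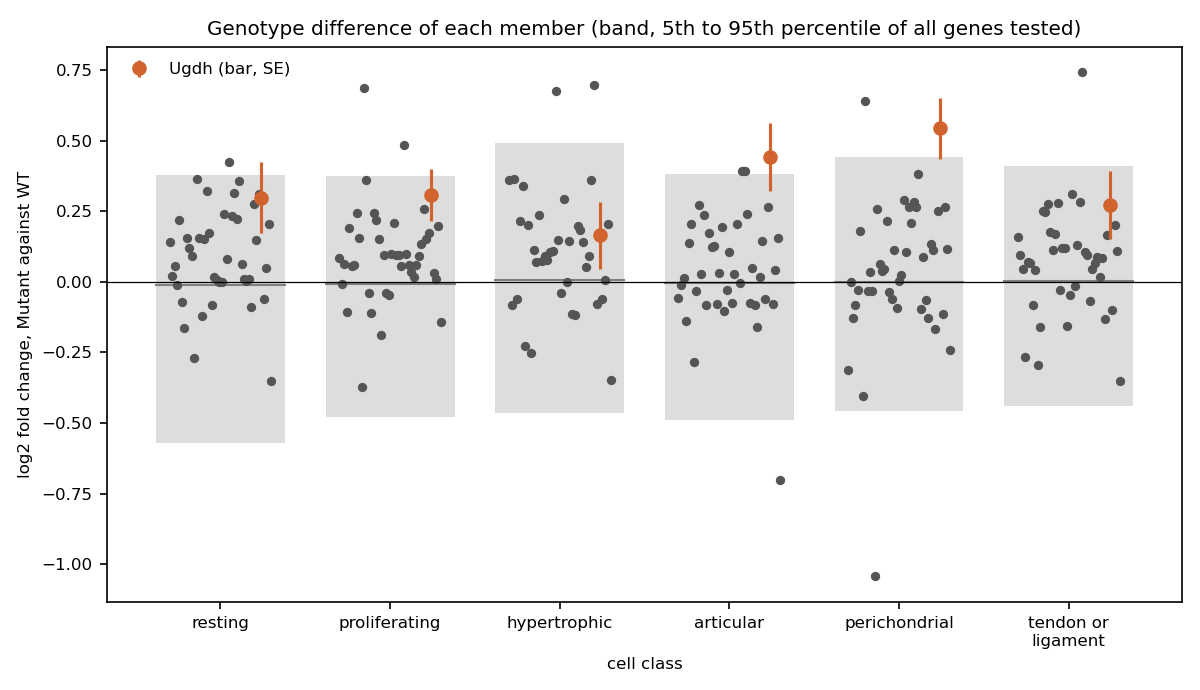
Log2 fold change of each member, Mutant against WT, in the 6 classes (points), with the 5th to 95th percentile of all genes tested as a grey band and Ugdh with its SE in orange. Most members lie within the band, and Ugdh lies above 0 in every class.

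By CPM, WT and Mutant pups were fully separated for 10 of 42 members in resting cells, 7 with the Mutant pups above and 3 below, beside 23.6% of all genes. The counts above and below were 4 and 2 of 42 members in proliferating cells (20.9% of genes), 7 and 0 of 38 in hypertrophic (19.5%), 8 and 3 of 41 in articular (22.1%), 7 and 9 of 43 in perichondrial (27.2%) and 0 and 5 of 42 in tendon or ligament cells (21.7%). By CPM Chsy1 was above in resting, hypertrophic, articular and perichondrial cells, and on both scales Ndst1 and Ndst2 in resting, articular and perichondrial cells. As shares, the separated members were 23.8% in resting, 14.3% in proliferating, 18.4% in hypertrophic, 26.8% in articular, 37.2% in perichondrial and 11.9% in tendon or ligament cells. With CPM divided by the TMM factors, the counts above and below were 8 and 1, 5 and 0, 7 and 1, 7 and 4, 9 and 5, and 7 and 4 in the same order of classes, so that the direction in tendon or ligament cells turned with the scaling. On that scale the separated shares of members were 21.4%, 11.9%, 21.1%, 26.8%, 32.6% and 26.2%, beside 24.9%, 19.3%, 19.0%, 26.2%, 26.6% and 20.1% of all genes. Chst12 was below on both scales in articular, perichondrial and tendon or ligament cells.

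Whether a genotype difference itself differed between classes was tested as an interaction with resting chondrocytes in the joint fit. No member passed for proliferating (0.0% of 15259 genes), hypertrophic (0.00655%, 1 gene) or perichondrial cells (0.0%). At an unadjusted p under 0.05 there were 2, 2 and 3 members and 349, 890 and 592 genes, and DESeq2 called 0, 2 and 0 genes, none of them a member. The genotype difference of Ugdh was 0.25 larger in perichondrial than in resting cells on the log2 scale (SE 0.102, edgeR adjusted p = 1.0).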

How the data were processed

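RNA of single cells from femoral and tibial cartilage of 2 WT and 3 Mutant pups was captured on the BD Rhapsody system, 1 library per pup. The authors deposited, per library, UMI counts per gene and cell barcode from the pipeline that the study used for demultiplexing and quantification, without normalization. The submitters' processing notes name build mm10, and the aligner and its version are not given in the sources used here.

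The study's filters on cells were applied (200 to 6000 genes, at most 10% mitochondrial UMIs). Leiden clusters (resolution 1.5, 20 neighbours, 50 components, seed 1) were made with scanpy 1.11.5 from Pearson residuals (theta 100) of 3000 features. No member and no other listed gene outside the core proteins was a feature. Clusters were named from at least 3 fixed markers. Scrublet marked 0 cells in 2 pups and 390 to 590 in the other 3, so the doublet caller did not work in the former, and no cell was removed. UMI counts were summed per pup and class. Sums were tested with edgeR 4.0.16 (quasi-likelihood test with a robust fit, TMM factors and filterByExpr, p adjusted by Benjamini-Hochberg over all genes, threshold 0.05) in R 4.3.3, with DESeq2 1.42.0 as an alternative, and tested on simulated data. Genotype was tested within a class over 2 against 3 pups, and the p-values measure the spread between these littermates. Class contrasts and interactions came from a joint fit of 6 classes with the pup as a block.

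Depth was 117746735 to 183322632 UMIs per library, and Poisson intervals and limits at 3 UMIs cover counting error only. All members were described by level. By rule, fold changes were to be given for members past the threshold with an absolute log2 fold change of at least 1 in a class contrast, and for the 3 members with the smallest p in each genotype comparison. Sequences follow the paralog pair with the lowest correlation, while Chst3, Chst11 and Papss2 were added after their values were seen. The rarer classes, the resting clusters and the Ugdh account were also chosen after values were seen. Members and lists were chosen with earlier results of these data known. Of the members, 3 share exons with another gene on the same strand and 9 on the other strand. The alternatives were DESeq2, its size factors, no count filter, each pup left out, resolutions 0.8 and 2.5, members kept as features, no upper gene limit, doublets left out and an Xist covariate. Leaving out the top 5% of Scrublet scores, and dividing CPM by the TMM factors of the joint fit for ranks and for the separation of pups, were added after seeing the data.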

Additional observations from a re-analysis of the deposited data

How the results depend on the processing

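The number of members passing by class against resting chondrocytes stayed within 33 to 38 in proliferating, 30 to 36 in hypertrophic, 30 to 35 in articular, 36 to 40 in perichondrial and 35 to 39 in tendon or ligament cells over all alternatives run. The 0 members called by genotype stayed at 0 with each pup left out, but DESeq2 gave 1 in perichondrial cells, and edgeR without the filter on low counts gave 1 in perichondrial and 1 in articular cells, Ugdh each time. Without that filter edgeR called 7, 40, 14, 86, 91 and 28 genes by genotype in resting, proliferating, hypertrophic, articular, perichondrial and tendon or ligament cells, where it called 0 with it. The 0 members called in the interactions stayed at 0. Of the values of single members under alternatives, 1119 kept their direction and side of the threshold, 9 lost and 3 gained a call, and 1 turned: Chsy1 by genotype in proliferating cells was at -0.00176 with the Xist covariate. The median log2 fold change of all genes, hypertrophic against resting cells, was -0.125 in the test as reported, 0.505 with DESeq2 and -0.329 without the filter, both of which tested more genes. Few hypertrophic cells and the low UMI counts of Chst13 and Chst7 limit those values, and the causes of the shifts were not tested.

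Apart from the fits with a pup left out, the medians of the members that moved by more than the spread between pups were as follows. By genotype, the resting median was 0.127 with the members kept as features and 0.147 with no upper limit on genes, the hypertrophic median 0.219 with the Xist covariate, and the articular median 0.0877 with that covariate and 0.0708 at resolution 0.8. The genotype values of all fits with the Xist covariate set the third Mutant pup against the 2 WT pups. By class, resolution 0.8 gave 0.255 in proliferating, -0.0109 in hypertrophic and -0.143 in articular cells. With the members kept as features the proliferating median was 0.0697 and the tendon or ligament median -0.025. With no upper limit the proliferating median was 0.267, and without the count filter the hypertrophic median was -0.295. In the interactions, the proliferating median was -0.032 with the Xist covariate, 0.0278 at resolution 0.8 and -0.0406 with the members kept as features. The hypertrophic median was -0.0692 at resolution 2.5 and -0.0578 with no upper limit, and the perichondrial median -0.0139 at resolution 0.8.

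With each pup left out in turn, the genotype medians lay between 0.000867 and 0.157 in resting, 0.0245 and 0.164 in proliferating, 0.0232 and 0.204 in hypertrophic, -0.00837 and 0.0973 in articular, 0.000342 and 0.0967 in perichondrial, and 0.0539 and 0.134 in tendon or ligament cells. They moved by more than the spread between pups in 4 of these fits in resting, 2 in proliferating, 2 in hypertrophic and 3 in articular cells. In perichondrial and in tendon or ligament cells none did. The class medians lay between 0.179 and 0.257 in proliferating, -0.171 and -0.0679 in hypertrophic and -0.0863 and -0.0259 in articular cells. They lay between -0.295 and -0.255 in perichondrial and -0.189 and -0.113 in tendon or ligament cells. The interaction medians lay between -0.0319 and 0.0265 for proliferating and between -0.0967 and 0.00362 for perichondrial cells. No paired analysis was possible because the labels number the pups once through and give no number shared by a WT and a Mutant pup, and each class contrast already holds the pup as a block.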
